A study of Mus musculus with 6 samples.

Results

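Rab GTPases are small membrane-bound switches that direct vesicle traffic. The genes analysed here are the 43 Rab genes whose level averaged 1 FPKM or more (fragments normalised to transcript length and library size) over 6 mouse RNA sequencing libraries, out of 58 Rab genes listed and 21399 genes in all. They were chosen by symbol (Rab, a number and at most a letter and a further digit) and by that mean level, so the mean level is a description and no finding. Every one of the 43 reached a mean of 1 FPKM in both groups, and 15 Rab genes lay below the minimum and were not tested. The comparison between groups is no part of that rule, although earlier results of these data were known when the genes were chosen.

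The study compared 3 libraries labelled WT with 3 labelled KO. Microglia were taken from WT or KO mice whose leukocytes carry the CD45.2 form of the surface protein CD45, deprived of oxygen and glucose, and returned to oxygen. Both groups received peritoneal macrophages of CD45.1 mice during that return. The design text names the sorted cells microglia but gives them the CD45.1 mark of the macrophages, and every library is labelled as both cell types. Neither age, strain, durations nor the deleted gene is stated in the labels, and the series title names PPARα. Replicates are not said to be separate cultures or animals, so p-values reflect only how far these libraries spread, and that spread may be technical.

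The libraries do not carry a microglial profile, and they differ in macrophage RNA. Recovered reads summed to between 33506540 and 37137934 per library. Ppara, the gene of PPARα, had 1 to 11 reads in the WT libraries and 10 to 23 in the KO libraries, so it does not check the labels. Of 11 microglia markers, 10 were listed and 5 reached a mean of 1 FPKM; P2ry12 reached at most 1.09 and Sall1 at most 0.152 FPKM in any library. All 10 B cell markers were present, with summed levels of 5031 to 5734 FPKM in WT and 4443 to 4835 FPKM in KO, and 5 of the 10 lay wholly below WT in KO. Of 10 T and NK cell markers, 8 reached a mean of 1 FPKM and 6 lay wholly below WT in KO, with summed levels of 200.3 to 243 FPKM in WT and 161 to 188 FPKM in KO. Of all genes averaging 1 FPKM or more, 15.2% lay wholly below WT in KO. The part of these lower lymphocyte markers in the Rab genes that stood lower in KO was not tested. The 12 core macrophage markers summed to 1903, 4017 and 1358 FPKM in WT replicates 1 to 3 and to 11659, 6185 and 5082 FPKM in KO replicates 1 to 3. Of the 12, 10 lay wholly above WT in KO, beside 9.75% of all genes averaging 1 FPKM or more. None of the core macrophage markers was at 0 in any library. In RNA of mixed cells, fewer cells of a type and less RNA per cell cannot be told apart.

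Rab proteins work in a cycle. Geranylgeranyl groups attached to the C-terminus anchor them in membranes, and the inactive, GDP-bound form is held in the cytosol by a carrier protein. Exchange factors load GTP at a target membrane, the active form recruits tethers, motors and other effectors, and GTPase-activating proteins end the signal. In phagocytes, successive Rab proteins mark the path of a particle from early to late phagosome and on to the lysosome, while others drive recycling and secretion.

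No Rab gene passed the test for a difference between the groups. With limma on log2(FPKM + 1), 0 of 43 were called higher and 0 lower in KO at an adjusted p of 0.05, where 0.0280% of the 10732 genes tested were called higher and 0% lower. Voom on the recovered reads also called 0 higher and 0 lower. At an unadjusted limma p under 0.05, 9 of the 43 were higher in KO and 3 lower, beside 8.86% and 8.21% of all genes tested. The KO libraries lay wholly above the WT libraries for 11 of the 43 and wholly below for 6, beside 9.75% and 15.2% of all genes. The median difference over the 43 was 0.06 (log2), from -0.28 for Rab19 to 1.47 for Rab32, and that over all genes tested was -0.06. The median over the 43 was 0.0273 without WT replicate 3 and 0.0403 without KO replicate 1. Differences were positive for 25 and negative for 18 of the 43 (35.4% of all genes tested were positive). They were positive for 30 and negative for 13 with median-of-ratios scaling or with voom (48.0% and 48.3% of all genes positive), and positive for 17 and negative for 26 with the macrophage marker level as a covariate (45.7%).

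**Figure D1:**
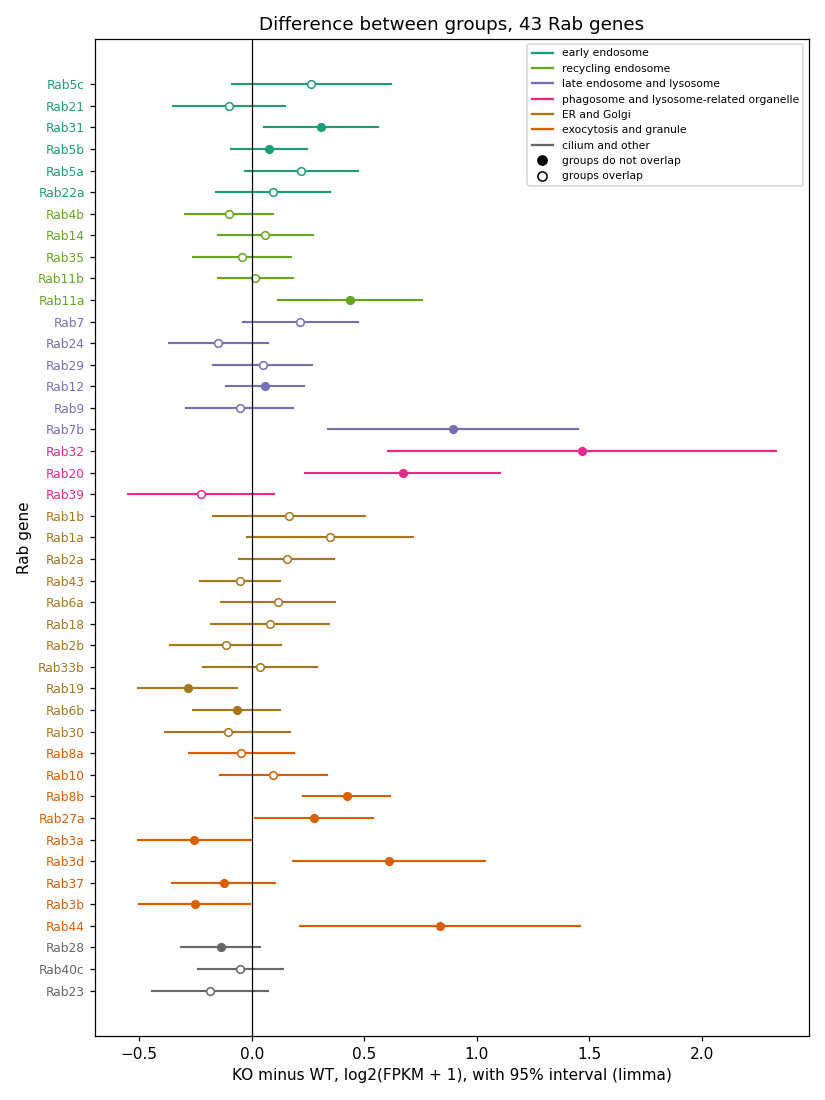
Difference between KO and WT for each of the 43 Rab genes on log2(FPKM + 1), with the limma 95% interval as a line and colours for the main compartment. Filled points are the genes whose 3 KO libraries do not overlap the 3 WT libraries, 11 above and 6 below. Rab32, Rab7b and Rab44 lie farthest to the right, and no gene passed the adjusted test.

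Ordinary endosomal and secretory Rab genes dominated the family's RNA. The summed FPKM of the 43 genes was 1118 ± 85.4 in the WT libraries and 1218 ± 63.8 in the KO libraries (SD, n = 3 each), between 0.254% and 0.294% of all FPKM in a library. The 6 highest supplied 44.1% to 47.6% of the family's FPKM in each library. Rab4b, which drives fast recycling to the plasma membrane, stood at 105, 120 and 111 FPKM in WT and 103, 102 and 108 FPKM in KO. Rab5c, a Rab of early endosome fusion, stood at 90.9, 117 and 83.3 FPKM in WT and 135, 108 and 106 FPKM in KO. Both genes had overlapping groups, and the order of their means, 108 and 107 FPKM, lies within the spread between libraries. Rab7, the Rab of late endosomes and their fusion with lysosomes, stood at 90.5, 102 and 84.8 FPKM in WT and 120, 102 and 101 FPKM in KO. Rab1b, of transport from the endoplasmic reticulum (ER) to the Golgi, stood at 78.4, 97.9 and 72.8 FPKM in WT and 109, 83.3 and 87.4 FPKM in KO. Rab8a, of transport from the Golgi to the plasma membrane, stood at 76.6, 91.8 and 81.0 FPKM in WT and 83.9, 73.6 and 83.8 FPKM in KO. The sixth, Rab14, which acts between Golgi, endosomes and phagosomes, stood at 49.8, 46.0 and 42.97 FPKM in WT and 44.8, 50.5 and 49.5 FPKM in KO. WT and KO values overlapped for each of these 6 genes, with limma adjusted p from 0.365 to 0.835 over these genes. The levels of 7 genes are uncertain because their exons overlap another protein-coding gene, on the same strand for Rab4b (Gm21983) and Rab43 (Gm45140) and on the other for Rab24, Rab2b, Rab3a, Rab5a and Rab6a. Of the 43, 26 reached 10 FPKM in every library, and by compartment the early endosome held 20.8%, the recycling endosome 21.2%, ER and Golgi 21.8%, the late endosome and lysosome 16.3%, exocytosis and granules 15.03%, phagosomes and lysosome-related organelles 2.91% and the remaining genes 1.98% of the family's FPKM.

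**Figure D2:**
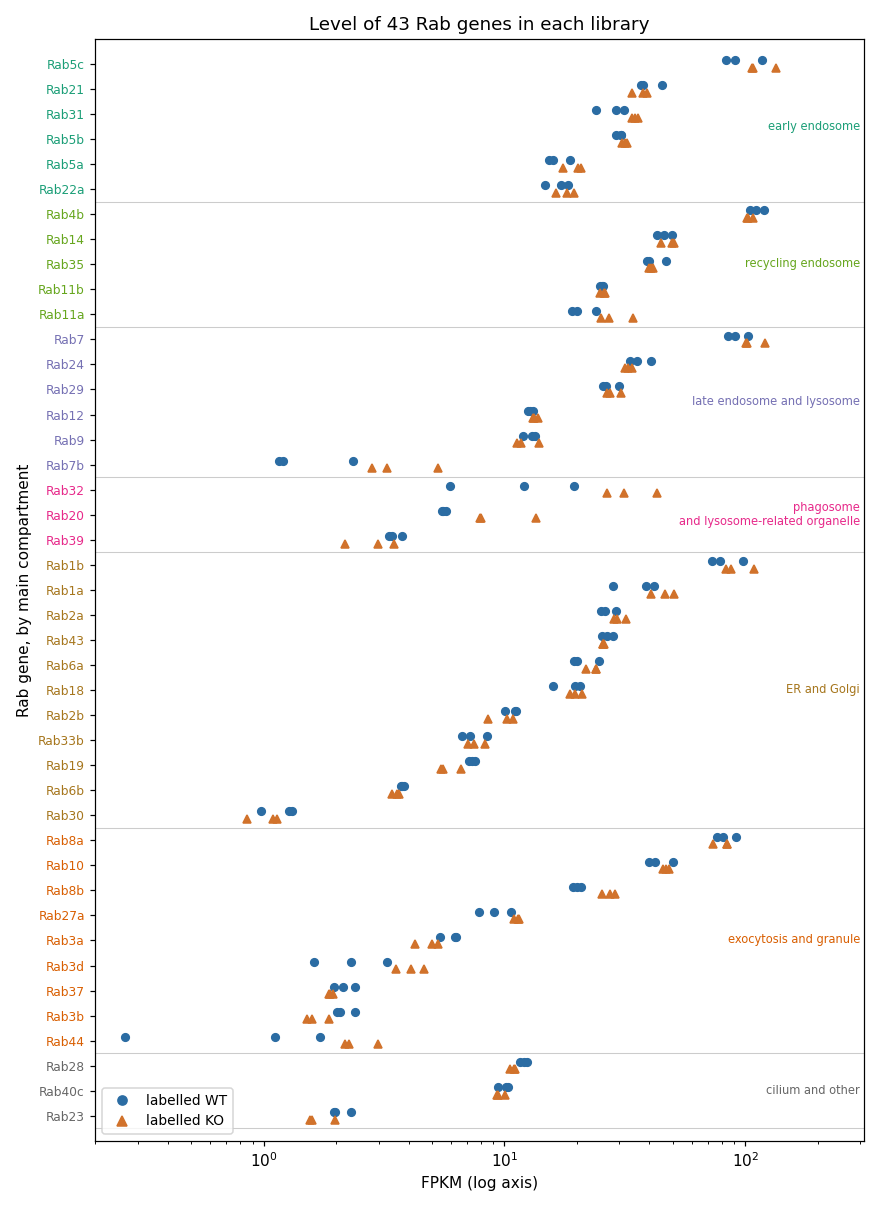
FPKM (log axis) of each of the 43 Rab genes in every library, grouped by main compartment and ordered by mean level within it. Circles are the 3 libraries labelled WT and triangles the 3 labelled KO. Circles and triangles overlap for 26 genes, while KO lies wholly above WT for 11 and wholly below for 6. Upward gaps include those of Rab32, Rab20, Rab7b, Rab8b, Rab3d and Rab44, and downward gaps those of Rab19 and Rab3b.

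Phagosomal Rab genes held the widest difference. Of 7 listed, 3 reached the minimum. Of these 3, 2 (66.7%), Rab32 and Rab20, were higher in every KO library than in any WT library, beside 9.75% of all genes. The KO libraries lay below WT for 0 of the 3, beside 15.2% of all genes. Rab32 serves lysosome-related organelles and the phagosomes of macrophages. It lies on chromosome 10 from 10545002 to 10558265 (mm10, minus strand). Rab32 stood at 12.1, 19.5 and 5.95 FPKM in WT and at 42.96, 31.3 and 26.7 FPKM in KO. The WT libraries were spread widely, with replicate 2 highest, and the KO libraries all lay above it. Mean FPKM was 12.5 ± 6.78 for WT and 33.7 ± 8.37 for KO (SD, n = 3 each), 2.69 times as high, with a log2 difference of 1.47 (SE 0.37, limma adjusted p = 0.132). With each library left out in turn the difference ranged from 1.06, without WT replicate 3 (limma adjusted p = 0.238), to 1.84, without WT replicate 2. It passed the test without WT replicate 2 (limma adjusted p = 0.0193), a setting that called 500 genes, or 4.66% of all tested, higher in KO, and 4 of the 43 Rab genes (9.30%). It did not pass with any other library left out, where the limma adjusted p ran from 0.169 to 0.420.

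Rab20, of phagosome and macropinosome maturation, differed in another way. It lies on chromosome 8 from 11453518 to 11478710 (mm10, minus strand), where an exon overlaps the opposite-strand noncoding gene E230013L22Rik. It stood at 5.57, 5.50 and 5.73 FPKM in WT and at 13.5, 8.02 and 7.89 FPKM in KO. The WT libraries were nearly equal, with core macrophage marker sums of 1903, 4017 and 1358 FPKM. KO replicate 1 stood above the other KO libraries, and its marker sum was 11659 FPKM beside 6185 and 5082 FPKM. Group and macrophage level cannot be told apart in these libraries. The means were 5.60 ± 0.117 and 9.79 ± 3.18 FPKM, with a log2 difference of 0.67 (SE 0.19, limma adjusted p = 0.150), and 0.44 without KO replicate 1. Rab39, linked to phagosome acidification and autophagy, stood at 3.76, 3.30 and 3.42 FPKM in WT and 2.97, 3.49 and 2.18 FPKM in KO, and the groups overlapped.

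Near the edge of the level rule, the 3 lowest Rab genes kept were Rab30 at a mean of 1.11 FPKM, Rab44 at 1.75 and Rab23 at 1.89. Just under it lay Rab34, a phagosomal Rab, at a mean of 0.912 FPKM (0.366, 1.03 and 0.541 in WT, 1.34, 0.916 and 1.28 in KO), Rab13 at 0.820 and Rab25 at 0.509. The others under the minimum were Rab26, Rab4a, Rab27b, Rab39b, Rab33a, Rab36, Rab38, Rab15, Rab42, Rab40b, Rab9b and Rab3c, with means from 0.484 down to 0.00622 FPKM.

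Promoters are shown for Rab8b, Rab32 and Rab20, of p ranks 1, 2 and 4, to set beside each other the start regions of genes that stood higher in KO. For Rab7b, of p rank 3, no promoter was at hand. RefSeq promoters of assembly GRCm38.p6 (250 bases before to 50 after a start) were matched by symbol, giving 44 promoters of 37 of the 43 genes. The sequences of Rab8b (chr9:66919656-66919955), Rab32 (chr10:10558158-10558457) and Rab20 (chr8:11478591-11478890), all on the minus strand, are printed 5′ to 3′, with capitals marking any of the motifs searched on both strands.
Rab8b: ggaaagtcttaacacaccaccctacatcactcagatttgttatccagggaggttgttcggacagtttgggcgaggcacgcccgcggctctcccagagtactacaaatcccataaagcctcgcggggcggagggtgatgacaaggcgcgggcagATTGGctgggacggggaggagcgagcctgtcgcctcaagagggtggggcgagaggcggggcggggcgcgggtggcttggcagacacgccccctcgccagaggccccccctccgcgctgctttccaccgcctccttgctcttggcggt
Rab32: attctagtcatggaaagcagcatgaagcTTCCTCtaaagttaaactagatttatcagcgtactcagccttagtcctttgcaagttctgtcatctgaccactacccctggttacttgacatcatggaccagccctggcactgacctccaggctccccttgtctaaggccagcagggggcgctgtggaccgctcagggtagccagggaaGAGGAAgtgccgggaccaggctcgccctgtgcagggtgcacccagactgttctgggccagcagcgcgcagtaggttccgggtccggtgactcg
Rab20: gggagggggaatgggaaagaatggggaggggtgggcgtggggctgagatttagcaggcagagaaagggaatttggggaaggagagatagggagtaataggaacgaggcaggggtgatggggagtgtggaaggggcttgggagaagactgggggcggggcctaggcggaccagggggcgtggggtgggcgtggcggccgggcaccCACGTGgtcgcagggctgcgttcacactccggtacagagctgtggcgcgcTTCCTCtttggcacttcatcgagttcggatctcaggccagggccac
The motifs were CACGTG (an E-box), GAGGAA (a longer form of the GGAA core of ETS factor sites), TGANTCA (an AP-1 site) and CCAAT. They were not searched beyond these windows, and GGAA in other contexts was not marked. The Rab20 promoter holds 1 E-box and 1 GAGGAA match, the Rab32 promoter 2 GAGGAA matches and the Rab8b promoter 1 CCAAT box. The E-box occurs in 6 of the 44 Rab promoters (13.6%) and in 7.15% of 32851 promoters of that length. GAGGAA occurs in 9 (20.5%) beside 28.3%, CCAAT in 21 (47.7%) beside 37.4% and the AP-1 letters in 0 beside 7.81%. The median GC content was 63.3% in the Rab promoters and 52.7% in all. These are matches of letters only.

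Of 6 late endosomal and lysosomal Rab genes, Rab7b had the largest difference. It is a Rab of myeloid cells that carries cargo from late endosomes to the trans-Golgi. Rab7b lies on chromosome 1 from 131688695 to 131715439 (mm10, plus strand). It stood at 1.21, 2.35 and 1.16 FPKM in WT and at 5.30, 3.24 and 2.82 FPKM in KO. All KO libraries lay above WT replicate 2, the highest of its group. The means were 1.57 ± 0.675 and 3.79 ± 1.33 FPKM, with a log2 difference of 0.89 (SE 0.24, limma adjusted p = 0.142). Leaving out each library gave 0.68, without KO replicate 1 (limma adjusted p = 0.412), to 1.099, without WT replicate 2, the only one of these settings that passed (limma adjusted p = 0.0339). Of the 6 genes of this compartment, Rab12, which sends recycling receptors to lysosomes, also had groups apart, at 12.5, 12.8 and 13.09 FPKM in WT and 13.8, 13.3 and 13.11 FPKM in KO. That gap was small, with a log2 difference of 0.06. The KO libraries thus lay above WT for 2 of the 6 (33.3%) and below for 0, beside 9.75% and 15.2% of all genes. Rab7, Rab9 (return of sorting receptors to the Golgi), Rab24 (autophagy) and Rab29 (a partner of the kinase LRRK2) had overlapping groups with differences from -0.15 to 0.22. Exons of Rab24 overlap those of Prelid1 on the other strand, so its level of 31.6 to 40.6 FPKM is uncertain.

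Among 6 early endosomal Rab genes, 2 (33.3%), Rab31 and Rab5b, had the KO libraries above WT, and 0 had them below. Over all genes the shares were 9.75% and 15.2%. Rab31, of traffic between the trans-Golgi and endosomes (chromosome 17, from 65651729 to 65772752, mm10, minus strand), stood at 29.1, 31.3 and 23.9 FPKM in WT and 35.8, 34.7 and 33.9 FPKM in KO. The 3 KO libraries were close together and just above WT replicate 2, and the log2 difference was 0.31 (SE 0.11, limma adjusted p = 0.227), or 0.20 without WT replicate 3. Rab5b stood at 30.5, 30.4 and 29.1 FPKM in WT and 32.4, 30.9 and 31.8 FPKM in KO, a log2 difference of 0.08. Rab5a, Rab5c and Rab22a, all of early endosome fusion, had positive differences of 0.22, 0.26 and 0.09, and Rab21, of integrin traffic, one of -0.10. These 4 overlapped between groups.

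Of 5 recycling Rab genes, only Rab11a had groups apart, with the KO libraries above WT. The KO libraries lay above WT for 9.75% of all genes and below for 15.2%. Rab11a, of the slow recycling endosome (chromosome 9, from 64715299 to 64737758, mm10, minus strand), stood at 19.9, 24.1 and 19.0 FPKM in WT and 34.1, 27.3 and 25.2 FPKM in KO. KO replicate 1 was highest and KO replicate 3 lay only just above WT replicate 2. The means were 21.01 ± 2.69 and 28.9 ± 4.64 FPKM, with a log2 difference of 0.44 (SE 0.14, limma adjusted p = 0.191). Its close relative Rab11b stood between 24.8 and 26.1 FPKM in all 6 libraries, with a log2 difference of 0.02 (95% interval -0.15 to 0.18). Rab4b, Rab14 and Rab35, which returns cargo from endosomes to the surface, had overlapping groups with differences of -0.10, 0.06 and -0.04.

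Of 11 genes of the ER and Golgi, 0 had the KO libraries above WT and 2 (18.2%) had them below, near the 15.2% of all genes. Rab19, a little studied Golgi Rab (chromosome 6, from 39381175 to 39390380, mm10, plus strand), stood at 7.35, 7.52 and 7.13 FPKM in WT and 5.45, 5.55 and 6.58 FPKM in KO. The WT libraries were tightly grouped above all KO libraries, with a log2 difference of -0.28 (SE 0.09, limma adjusted p = 0.204). Rab6b, of retrograde Golgi traffic, stood at 3.71, 3.75 and 3.81 FPKM in WT and 3.41, 3.65 and 3.57 FPKM in KO, a log2 difference of -0.07. Rab1a, the ER-to-Golgi partner of Rab1b, stood at 38.7, 41.7 and 28.1 FPKM in WT and 50.5, 46.6 and 40.5 FPKM in KO. Its difference of 0.35 was the largest of the compartment, yet WT replicate 2 exceeded KO replicate 3. Rab2a and Rab2b (Golgi structure and ER-Golgi traffic), Rab6a, Rab18 (lipid droplets and ER), Rab30, Rab33b (Golgi and autophagosomes) and Rab43 overlapped between groups, with differences from -0.12 to 0.15.

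The 9 exocytic and granule Rab genes tested included both signs of difference. Beside 9.75% of all genes above and 15.2% below, 4 had the KO libraries above WT (Rab8b, Rab3d, Rab44 and Rab27a), 3 had them below (Rab3a, Rab3b and Rab37) and 2, Rab8a and Rab10, overlapped. Rab8b, of transport to the plasma membrane (chromosome 9, from 66843664 to 66919687, mm10, minus strand), had the smallest p of the family. It stood at 20.8, 19.3 and 20.1 FPKM in WT and 25.4, 28.9 and 27.3 FPKM in KO. Both groups were tight, and the lowest KO library was well clear of the highest WT library. The means were 20.04 ± 0.742 and 27.2 ± 1.75 FPKM, 1.36 times as high, with a log2 difference of 0.42 (SE 0.08, limma adjusted p = 0.106).

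Rab3d, of regulated secretion from granules (chromosome 9, from 21907491 to 21918192, mm10, minus strand), stood at 2.30, 3.26 and 1.61 FPKM in WT and 4.63, 4.09 and 3.56 FPKM in KO. The log2 difference was 0.61 (SE 0.18, limma adjusted p = 0.175). Leaving out each library gave 0.44, without WT replicate 3 (limma adjusted p = 0.358), to 0.79, without WT replicate 2, again the only one that passed (limma adjusted p = 0.0300). WT replicate 2 lay nearest to the KO libraries. Rab44, a large Rab of granule release in mast cells and other blood cells (chromosome 17, from 29114145 to 29148980, mm10, plus strand), stood at 0.265, 1.71 and 1.12 FPKM in WT and 2.98, 2.19 and 2.26 FPKM in KO. WT replicate 1, with 40 Rab44 reads, was far below the rest. The log2 difference was 0.84 (SE 0.27, limma adjusted p = 0.194). It was 0.53 without WT replicate 1 (limma adjusted p = 0.267) and 1.08 without WT replicate 2 (limma adjusted p = 0.0466), the only library whose removal brought it past the threshold. The 6 mast cell markers summed to 10.3, 558 and 253 FPKM in WT replicates 1 to 3 and to 461, 468 and 107 FPKM in KO replicates 1 to 3, all 6 with overlapping groups, and their part in the Rab44 values was not tested.

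Rab27a, of lytic granules and exosome release (chromosome 9, from 73044854 to 73097629, mm10, plus strand), stood at 9.06, 10.6 and 7.87 FPKM in WT and 11.5, 11.4 and 10.9 FPKM in KO. The groups were apart by a narrow gap, with a log2 difference of 0.28 (limma adjusted p = 0.271), or 0.18 without WT replicate 3. A processed pseudogene overlaps its exons on the same strand. Rab3a, a Rab of synaptic and other regulated secretion (chromosome 8, from 70754679 to 70758677, mm10, plus strand), stood at 5.38, 6.25 and 6.32 FPKM in WT and 4.26, 5.01 and 5.31 FPKM in KO. Its exons overlap Mpv17l2, and the log2 difference was -0.25 (limma adjusted p = 0.285). Rab3b, also of regulated secretion (chromosome 4, from 108879063 to 108943324, mm10, plus strand), stood at 2.39, 2.08 and 2.02 FPKM in WT and 1.58, 1.87 and 1.51 FPKM in KO, with a log2 difference of -0.25 (limma adjusted p = 0.280). For both genes every KO library lay below every WT library. Rab37, a granule Rab, stood at 2.14, 1.95 and 2.40 FPKM in WT and 1.86, 1.89 and 1.94 FPKM in KO, a difference of -0.13. Rab10, of polarised secretion and recycling, stood at 39.9 to 50.3 FPKM in WT and 45.7 to 48.2 FPKM in KO.

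The remaining 3 genes all had negative differences, and 1 of them (33.3%) had the KO libraries below WT, beside 15.2% of all genes. Rab28, of ciliary and photoreceptor traffic, stood at 12.05, 12.4 and 11.6 FPKM in WT and 11.03, 10.9 and 10.6 FPKM in KO, with groups apart and a log2 difference of -0.14. Rab23, a regulator of Hedgehog signalling, and Rab40c, which carries a ubiquitin ligase box, overlapped, with differences of -0.19 and -0.05.

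Ratios of related Rab genes set each gene beside its nearest relative in the same library. The pairs were chosen with the values known, and the separated ones each include a gene already described as higher in every KO library, so they are a description. In 11 pairs of relatives, the ratio of FPKM within a library was wholly higher in KO for 5 and overlapped for 6. The ratio of Rab8b to Rab8a was 0.271, 0.210 and 0.248 in WT and 0.302, 0.392 and 0.326 in KO. The ratio of Rab11a to Rab11b was 0.802, 0.941 and 0.750 in WT and 1.37, 1.04 and 0.977 in KO, so Rab11b was the more abundant in every WT library and in 1 KO library. The ratio of Rab7b to Rab7 was 0.0133, 0.0230 and 0.0136 in WT and 0.0441, 0.0319 and 0.0279 in KO, so Rab7 remained far the more abundant. The ratio of Rab3d to Rab3a was 0.428, 0.521 and 0.255 in WT and 1.09, 0.816 and 0.669 in KO, and that of Rab3d to Rab3b was also wholly higher in KO. These last pairs share Rab3d. Each of the 5 gave an exact two-sided permutation p of 0.1, the smallest that 3 against 3 allows, so the design could not reach 0.05. The ratios among Rab5a, Rab5b and Rab5c, of Rab1a to Rab1b, of Rab2a to Rab2b and of Rab6a to Rab6b overlapped (exact two-sided permutation p of at least 0.2).

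**Figure D3:**
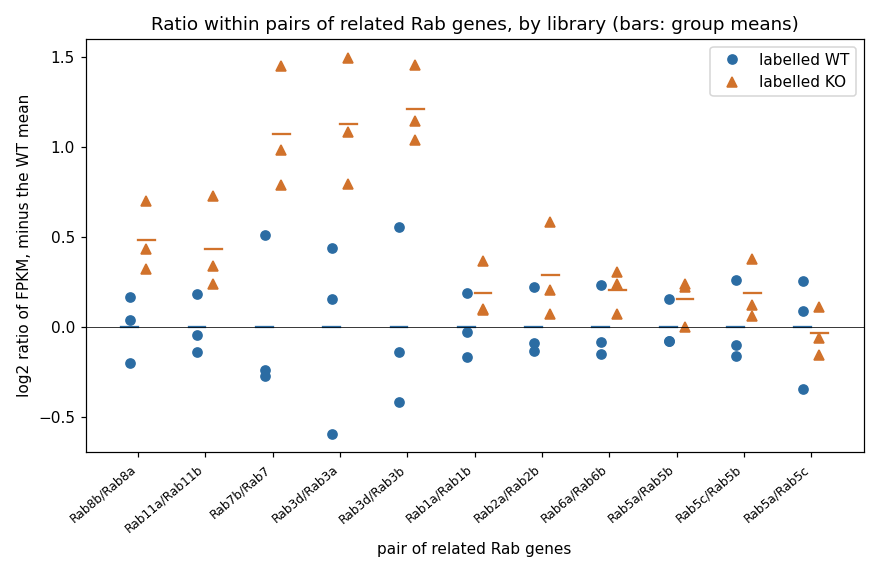
Log2 ratio of FPKM within 11 pairs of related Rab genes in each library, shifted so that the WT mean of each pair is 0. Circles are WT libraries, triangles KO libraries and bars group means. The 5 pairs at the left have all KO libraries above all WT libraries, and the 6 at the right overlap.

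Several of the Rab genes that stood higher in KO followed the macrophage marker level from library to library, and others did not. By the mean level of the 12 core macrophage markers the libraries ordered as WT replicates 3, 1 and 2, then KO replicates 3, 2 and 1. Rab32, Rab7b, Rab3d, Rab11a, Rab31 and Rab27a followed this exact order over all 6 libraries, 6 of 43 (14.0%) beside 3.66% of all genes tested. This order places every WT library below every KO library, so only genes with the KO libraries wholly above WT can follow it. Such genes were 11 of the 43 (25.6%), beside 9.75% of all genes. Of those 11, 6 followed the order, beside 393 of 1046 among all genes tested. Rab37 followed the reverse order, 1 of 43 (2.33%) beside 1.64% of all genes tested. Within the groups alone, 15 of 43 (34.9%) were highest in both WT replicate 2 and KO replicate 1, beside 23.3% of all genes. Rab8b went the other way, as it was lowest in both of these libraries. With the macrophage level as a covariate in limma, the difference was -0.03 for Rab32, 0.00485 for Rab7b, -0.07 for Rab3d, -0.04 for Rab11a, -0.00473 for Rab31 and -0.06 for Rab27a. It was 0.54 for Rab8b (limma adjusted p = 0.374), 0.33 for Rab20 (limma adjusted p = 0.649) and 0.29 for Rab44 (limma adjusted p = 0.786). The covariate differs between the groups itself, so group and macrophage level cannot be told apart in 6 libraries.

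**Figure D4:**
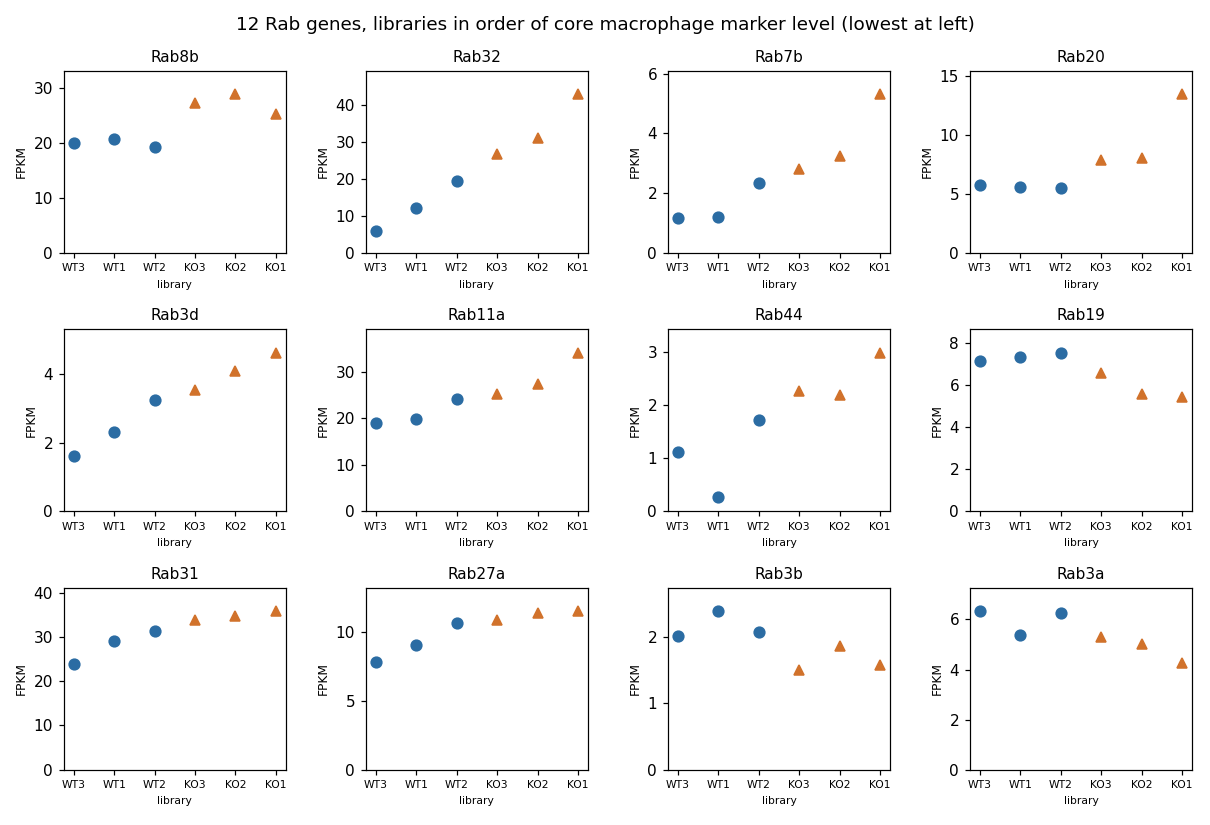
FPKM in each library for the 12 Rab genes with the smallest unadjusted limma p, with libraries ordered from the lowest to the highest core macrophage marker level. Circles are WT and triangles KO libraries. Rab32, Rab7b, Rab3d, Rab11a, Rab31 and Rab27a climb from left to right without a step down. Rab8b and Rab20 are level across the WT libraries, and Rab20 rises across the KO libraries.

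Genes of the Rab cycle outside the family also gave no calls. Of 146 symbols in 6 lists, 123 were tested and 0 were called higher or lower by limma, or by voom. At an unadjusted limma p under 0.05, 12 of the 123 (9.76%) were higher in KO and 15 (12.2%) lower, beside 8.86% and 8.21% of all genes. The KO libraries lay above WT for 15 (12.2%) and below for 23 (18.7%), beside 9.75% and 15.2% of all genes. The median log2 difference was -0.05, beside -0.06 over all genes tested. Without WT replicate 2, limma called 4 of the 123 higher (3.25%, beside 4.66% of all genes), namely Rab11fip5, Rin2, Tbc1d2b and Rab3il1, an exchange factor of Rab3 and Rab8.

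Of 8 genes for prenylation and extraction from membranes, 0 had the KO libraries above WT and 2 had them below. Among all genes tested, 9.75% had them above and 15.2% below. Rabggta, a subunit of the geranylgeranyl transferase, stood at 22.9, 26.5 and 25.03 FPKM in WT and 20.8, 19.3 and 21.1 FPKM in KO (limma adjusted p = 0.197). Rabif, a chaperone for nucleotide-free Rab proteins, overlapped, at means of 20.7 and 19.0 FPKM.

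Of 33 exchange factors tested, the KO libraries lay above WT for 6 (18.2%) and below for 9 (27.3%), beside 9.75% and 15.2% of all genes. Rin2, an exchange factor for Rab5, stood at 2.68, 5.47 and 1.16 FPKM in WT and 10.02, 7.93 and 7.96 FPKM in KO, with a log2 difference of 1.37 (SE 0.35, limma adjusted p = 0.140). Sbf2, linked to Rab28 and Rab21, stood at 5.59, 5.32 and 5.03 FPKM in WT and 7.96, 7.27 and 7.24 FPKM in KO (limma adjusted p = 0.106). Als2cl, of the Rab5 exchange factor family, stood at 11.9, 12.6 and 16.5 FPKM in WT and 6.78, 9.97 and 9.47 FPKM in KO (limma adjusted p = 0.156). Rin2 thus varied among WT libraries in the same order as Rab32, while Sbf2 was tight within groups.

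Of 29 GTPase-activating proteins tested, the KO libraries lay above WT for 3 and below for 3 (10.3% each), beside 9.75% and 15.2% of all genes. Tbc1d2b, which acts on Rab22a, stood at 2.70, 3.46 and 2.73 FPKM in WT and 5.73, 5.07 and 4.46 FPKM in KO, with a log2 difference of 0.62 (SE 0.12, limma adjusted p = 0.106). Evi5, linked to Rab11, had means of 2.07 ± 0.215 FPKM in WT and 2.83 ± 0.242 FPKM in KO. Tbc1d24, of synaptic vesicle traffic, had means of 1.146 ± 0.0757 and 1.63 ± 0.00463 FPKM (both with limma adjusted p = 0.195).

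Of 32 endosomal effectors and tethers tested, the KO libraries lay above WT for 4 (12.5%) and below for 7 (21.9%), near those shares of all genes. Rab11fip5, an effector of Rab11, stood at 4.805, 8.33 and 3.11 FPKM in WT and 20.2, 14.8 and 13.7 FPKM in KO. Every KO library exceeded WT replicate 2, the highest of its group, and the log2 difference was 1.49 (SE 0.29, limma adjusted p = 0.106). Rabep2, an effector of Rab5 and Rab4, stood at 47.9, 56.2 and 52.4 FPKM in WT and 40.5, 41.3 and 41.9 FPKM in KO (limma adjusted p = 0.141). Vps33b, of a tether acting at late endosomes and granules, stood at 13.7, 12.6 and 15.9 FPKM in WT and 9.24, 11.3 and 11.01 FPKM in KO (limma adjusted p = 0.173).

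Of 18 secretory effectors and tethers tested, the KO libraries lay above WT for 1 (5.56%) and below for 2 (11.1%), beside 9.75% and 15.2% of all genes. Mical1, an effector of Rab1, Rab8 and Rab10 that oxidises actin, had means of 49.7 ± 3.00 FPKM in WT and 40.6 ± 3.95 FPKM in KO. Sytl1, a Rab27 effector, had means of 3.16 ± 0.273 and 2.39 ± 0.305 FPKM, and Micall2, an effector of Rab13 and Rab8, overlapped between groups at 0.837 ± 0.599 and 2.14 ± 0.899 FPKM. Micall2 thus reached the minimum mean level only through the KO libraries. Of the 3 genes for kinases and the phosphatase of Rab proteins, the KO libraries lay above WT for 1 (33.3%) and below for 0. That gene, the phosphatase Ppm1h, had means of 1.14 ± 0.0812 and 1.53 ± 0.131 FPKM. The kinases Lrrk1 and Lrrk2 overlapped, at means of 11.2 and 10.1 FPKM and of 16.6 and 16.2 FPKM.

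**Figure D5:**
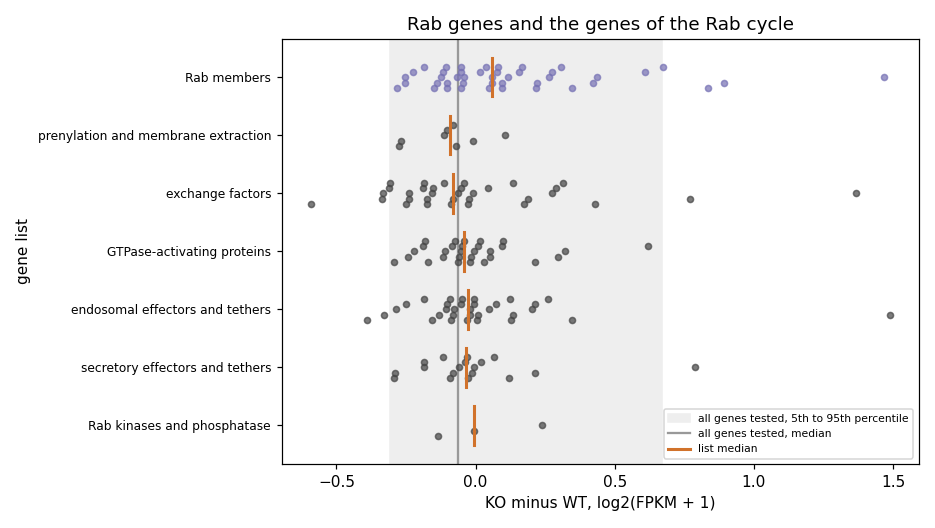
Differences between KO and WT on log2(FPKM + 1) for the 43 Rab genes and for 6 lists of Rab cycle genes, each point 1 gene. Orange bars are list medians, the grey line the median of all genes tested and the shaded band their 5th to 95th percentile. Most points lie inside the band, and Rab32, Rin2 and Rab11fip5 lie farthest outside it.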

How the data were processed

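The authors deposited 1 table of FPKM per library, made on build mm10 per the submitters' processing notes, from TRIzol RNA and VAHTS Universal V6 libraries per the labels' protocols. What is not given in the sources used here is the aligner, counting tool, strand setting and annotation, so reads of overlapping genes and of near-identical copies cannot be told apart. Of the 43 Rab genes, 18 have exons that overlap another gene in GENCODE M21, 7 of them a protein-coding gene.

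Groups came from the sample titles. The 10732 genes averaging 1 FPKM or more were tested on log2(FPKM + 1) by limma (version 3.58.1, R 4.3.3), using moderated variances with an intensity trend and a Benjamini-Hochberg threshold of 0.05. Adding 1 understates differences of low genes. FPKM were whole multiples of what 1 read is worth for 99.97% of the genes tested, within 0.002 reads. These recovered reads, the smallest whole numbers in proportion, gave the depths, with 40 to 12106 reads per Rab gene and library, and a voom fit. The gene tests and the read recovery were tested on simulated data.

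The members and lists were chosen with earlier results of these data known. The naming rule gave every member once, values in each library for the 12 smallest p and the 6 highest levels, and 3 genes per Rab cycle list (1 of them is not reported here); other values per library, the ratios of relatives, Rab3il1 and the motifs were chosen after values were seen. Alternatives were other pseudocounts, filters, scalings, variance models, a macrophage covariate, a replicate block, voom and leaving out each library. Tables were handled with Python 3.11.15 and pandas 2.3.3.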

Additional observations from a re-analysis of the deposited data

How the results depend on the processing

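No Rab gene and no Rab cycle gene was called under the settings run except without WT replicate 2, where 4 of each were called higher; leaving out each replicate thus gave 0 to 4 higher in both sets, and 0 lower. At an unadjusted limma p under 0.05, the 9 higher and 3 lower Rab genes became 12 and 1 with median-of-ratios scaling, 1 and 2 with the macrophage covariate and 6 and 0 without KO replicate 1. Over all genes the number called higher was 3, but 6 with a pseudocount of 5, 0 with no filter, 5 with voom, 0 with the covariate, 11 with the replicate block and 0 to 500 with each replicate left out; the number called lower was 0, and 0 to 38 with each replicate left out. Same-numbered libraries did not deviate together (correlations from -0.38 to 0.27), so the block joins numbers only. Median differences moved as follows. With median-of-ratios scaling they were 0.12 for all 43, 0.0776 for recycling, 0.0924 for ER and Golgi and -0.0790 for the remaining genes, and that scaling moved the median of all genes by 0.06; with voom they were 0.13, 0.0806 and 0.11 for the first 3 sets. With the covariate they were -0.0342 for all 43, -0.0362 for recycling, 0.0267 for early endosomes, -0.0681 for late endosomes, -0.0746 for ER and Golgi, -0.0550 for exocytosis and -0.0342 for phagosomes. With a filter at 5 FPKM they were 0.0812 for ER and Golgi and 1.07 for phagosomes, and with a pseudocount of 5, -0.0777 for the remaining genes. Leaving out each replicate gave 0.0273 to 0.0828 for all 43, 0.00178 to 0.0384 for recycling, 0.0166 to 0.0866 for late endosomes, 0.441 to 0.792 for phagosomes, -0.0256 to 0.0828 for ER and Golgi and 0.0273 to 0.192 for exocytosis. With the covariate, signs reversed for Rab32 (-0.0342), Rab3d (-0.0699), Rab11a (-0.0362), Rab31 (-0.00473), Rab27a (-0.0550), Rab5c (-0.30), Rab7 (-0.13), Rab1b (-0.35), Rin2 (-0.00423), Micall2 (-0.34) and Lrrk2 (0.69). Rab8a turned to 0.0168 with median-of-ratios scaling and 0.0169 with voom, and ranged from -0.102 to 0.0268 with each replicate left out. Lrrk2 turned to 0.0541 with median-of-ratios scaling, 0.00357 with quantile normalization and 0.0602 with voom, and ranged from -0.244 to 0.124 with each replicate left out. The cause was not tested. The planned edgeR fit and TMM scaling were not run, because the deposited unit is FPKM; voom used median-of-ratios scaling instead, chosen after seeing the data. Of 602 values of named genes, 574 kept direction and side of the threshold. At 40 reads in a library, small differences in Rab44 are not detectable.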

Other observations

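Rab-like genes outside the symbol rule gave no call either. Rabl6 averaged 23.6 ± 1.31 FPKM over the WT libraries and 21.9 ± 0.227 FPKM over the KO libraries (SD, n = 3 each), with the KO libraries below WT (limma adjusted p = 0.532). Cracr2a, a large Rab-like GTPase of lymphocytes, stood at 3.80 ± 1.27 and 2.99 ± 0.513 FPKM, with overlapping groups. Rabl3 stood at 4.92 ± 0.680 and 4.78 ± 0.356 FPKM, and Ift27, a Rab-like subunit of ciliary transport, at 20.5 ± 1.77 and 18.3 ± 1.96 FPKM, both overlapping.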
